A study of Mus musculus with 6 samples.

Results

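The neighbourhood described here is a stretch of mouse chromosome 13 around *Arb2a*, the protein-coding gene whose intron holds the ultraconserved long non-coding RNA *T-UCstem1*. Its members are 7 named protein-coding genes out of 35565 genes in the count table: *Arb2a* itself (*Fam172a* in RefSeq), *Nr2f1*, *Pou5f2*, *Slf1*, *Mctp1*, *Rhobtb3* and *Glrx*. They were chosen as named genes near *Arb2a*, through the Ensembl identifiers of these symbols. The rule uses no expression value, although earlier results of these data were known when it was made. The list does not hold every near gene: *2210408I21Rik*, *Arsk* and *Rfesd* lie nearer to *Arb2a* than *Rhobtb3* and *Glrx* but are not members. All 7 were listed in the table, and 5 had enough counts to be tested. On GRCm39 they span 2.36 Mb from *Glrx* to *Nr2f1*.

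Bulk RNA-seq was performed on gastruloids, aggregates of mouse embryonic stem cells (ESCs) that elongate and pattern in culture, collected on day 5 after a pulse of 3 µM CHIR99021, a GSK3 inhibitor used to activate the WNT pathway. Control (NT) gastruloids gave 3 libraries, from non-targeting ESCs that the sample labels call WT, and KD-1 gastruloids gave another 3, from a knockdown clone of *T-UCstem1*. Both lines derive from TBV2 129/SvP ESCs. Each group comes from a single cell line and KD-1 is 1 clone, so the knockdown and any other difference between the lines cannot be told apart, and the labels do not say whether the libraries of a group came from separate cultures, although the methods of the study count n in independent experiments. *T-UCstem1* itself was not analysed here, so the silencing was not checked in these libraries.

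A non-coding RNA may act on genes next to the place it is transcribed from (in cis) or on genes elsewhere (in trans), and the transcript levels of the host gene and its neighbours are the readout in which a local effect would appear. *Nr2f1* encodes COUP-TFI, an orphan nuclear receptor best known from patterning of the nervous system. The other neighbours of the host gene encode proteins of unrelated kinds: a POU factor of the germ line, a DNA repair factor, a calcium-binding membrane protein, an atypical small GTPase and a glutaredoxin.

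The total per library was 20982249, 34694406 and 56674906 counts in Control (NT), against 41180012, 42407550 and 85561026 counts in KD-1. Libraries are named below by their depth within the group (lowest, middle, highest), and each list of values follows that order. The Control (NT) library of middle depth stood apart from the others of its group, with a chi-square statistic per degree of freedom of 36.29 and 36.47 against them, compared with 15.27 between those and at most 11.05 within KD-1. The results of the tested members are therefore also given without it. Levels are counts scaled to library size (CPM) after TMM normalization, which corrects for composition. A gene was called where the adjusted p of the quasi-likelihood test in edgeR was below 0.05 and the level differed by more than 1.5-fold in either direction.

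To compare the starts of a gene pair that lies side by side with that of the member that rose, the promoter windows of *Arb2a*, *Nr2f1* and *Glrx* are shown as RefSeq gives them on GRCm38.p6, 250 bases before to 50 bases after each annotated start. *Nr2f1* has a pair of windows 2424 bases apart, an outer one and an inner one, and both are printed. Each runs 5′ to 3′ along the gene's strand, and capitals mark matches to GGGCGG (the GC box, here read on either strand).
Arb2a, chr13:77708440-77708739, plus strand: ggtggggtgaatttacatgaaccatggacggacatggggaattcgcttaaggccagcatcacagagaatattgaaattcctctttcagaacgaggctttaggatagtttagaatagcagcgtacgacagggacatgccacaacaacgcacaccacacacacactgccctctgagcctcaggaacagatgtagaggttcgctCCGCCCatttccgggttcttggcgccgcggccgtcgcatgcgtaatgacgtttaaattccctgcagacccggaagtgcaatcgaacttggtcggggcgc
Nr2f1 outer, chr13:78198824-78199123, minus strand: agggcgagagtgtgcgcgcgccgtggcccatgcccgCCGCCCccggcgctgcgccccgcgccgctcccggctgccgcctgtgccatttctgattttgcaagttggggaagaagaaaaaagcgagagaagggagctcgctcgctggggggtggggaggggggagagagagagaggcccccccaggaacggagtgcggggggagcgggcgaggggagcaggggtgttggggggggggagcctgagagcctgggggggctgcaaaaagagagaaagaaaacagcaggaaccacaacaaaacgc
Nr2f1 inner, chr13:78196400-78196699, minus strand: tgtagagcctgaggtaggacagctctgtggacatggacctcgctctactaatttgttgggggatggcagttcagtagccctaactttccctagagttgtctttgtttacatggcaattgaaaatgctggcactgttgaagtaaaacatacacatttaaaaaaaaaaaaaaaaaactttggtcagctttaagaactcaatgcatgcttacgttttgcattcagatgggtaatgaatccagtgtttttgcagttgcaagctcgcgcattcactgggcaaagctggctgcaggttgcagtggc
Glrx, chr13:75839636-75839935, plus strand: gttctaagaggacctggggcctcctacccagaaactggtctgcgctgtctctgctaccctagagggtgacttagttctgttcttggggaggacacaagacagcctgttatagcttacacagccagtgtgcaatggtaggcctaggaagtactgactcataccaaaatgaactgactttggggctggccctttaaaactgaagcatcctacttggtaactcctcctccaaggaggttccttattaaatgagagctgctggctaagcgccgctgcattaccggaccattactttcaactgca
The outer *Nr2f1* window was the richest of these in G and C (68.0%) and held 23 CpG dinucleotides. *Arb2a* had 53.0% G and C with 20 CpG, and *Glrx* was below the median in G and C, with 4. The inner *Nr2f1* window had 43.0% with 4 CpG. Over 32817 mouse promoter windows the median was 52.7% with 7.0 CpG, so *Arb2a* and the outer *Nr2f1* start lay in CpG-rich sequence and *Glrx* did not.

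All 7 members matched a RefSeq entry, with 9 windows in total. GGGCGG was found in windows of 4 of the 7 members (*Arb2a*, *Nr2f1*, *Pou5f2* and *Rhobtb3*) and in 35.6% of all windows. CCAAT was found for *Slf1* and *Rhobtb3* and in 37.4% of all windows. No member window held AGGTCA, the half-site of nuclear receptors such as NR2F1 (16.3% of all windows), TATAAA (13.6%) or ATCAAAG, a TCF/LEF sequence (3.73%). All motifs were searched on both strands and no matches overlapped one another; a match is a description of the sequence only.

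Of the 7 members, *Nr2f1* fell and *Glrx* rose in KD-1, and the host gene *Arb2a* did not pass the test. *Rhobtb3* was lower in every KD-1 library but by less than the 1.5-fold threshold, *Slf1* overlapped between the groups, and *Mctp1* and *Pou5f2* had too few counts to be tested. Thus 2 of the 5 tested members were called, 1 higher and 1 lower. The background is high: 37.8% of all 15110 tested genes were called, 19.7% higher and 18.1% lower, so a share of 2 in 5 is near that of genes at large. By adjusted p alone 3 of the 5 members passed, against 63.5% of all tested genes. All 5 tested members had at least 207 counts in every library, so none reached the filter's level in 1 group alone.

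*Arb2a* (ENSMUSG00000064138, chromosome 13, from 77850152 to 78315270, plus strand, GRCm39) spans 465 kb. It had 25.8, 24.9 and 21.9 TMM-normalized CPM in Control (NT), against 25.7, 26.2 and 27.2 in KD-1. The groups overlapped, and the lowest value belonged to the deepest Control (NT) library. The log2 fold change of KD-1 over Control (NT) was 0.13 (standard error 0.080, 95% interval -0.05 to 0.31, adjusted p = 0.182 by the quasi-likelihood test of edgeR), an interval that leaves out changes of 1.5-fold in either direction. Without the middle Control (NT) library it was 0.16. The counts are those of the whole gene, and reads of an intronic transcript would enter them only through annotated transcripts of *Arb2a*. The antisense lncRNA gene *Gm38604* overlaps it by 43784 bases and was not analysed here.

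*Nr2f1* (ENSMUSG00000069171, from 78337092 to 78348578, minus strand) is the nearest protein-coding gene on the side of higher coordinates, with 21.8 kb between its 3′ end and that of *Arb2a*. The genes face each other, so that their starts lie 498 kb apart. *Nr2f1* had 15.1, 22.2 and 13.9 CPM in Control (NT), against 4.94, 5.72 and 5.24 in KD-1 (counts of 314, 751 and 772, and of 207, 249 and 455). Every KD-1 library lay below every Control (NT) library, which was so in 1 direction or the other for 70.6% of all tested genes. The mean fell from 17.1 ± 4.47 to 5.30 ± 0.397 CPM (SD, n = 3 each), a 3.23-fold lower level with a change of -1.69 on the log2 scale (standard error 0.18, 95% interval -2.10 to -1.28, adjusted p = 5.82e-05 by the quasi-likelihood test of edgeR). The high Control (NT) value was that of the library of middle depth; without it the log2 fold change was -1.45, and the call held in all 14 alternative settings. In bulk libraries, fewer cells of a type and less RNA per cell cannot be told apart. The gene shares 2501 and 5598 bases with the antisense lncRNA genes *A830082K12Rik* and *3110006O06Rik*, which were not analysed here; whether strand was used in counting is not given in the sources used here, so reads of these genes cannot be told apart from those of *Nr2f1*.

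*Pou5f2* (ENSMUSG00000093668, from 78173021 to 78174414, plus strand) lies within *Arb2a* with no base in its exons. It encodes a POU-domain transcription factor related to OCT4 and known from male germ cells. The gene had 1 count in the middle Control (NT) library, 1 in the deepest KD-1 library and 0 in the other libraries. Over all libraries of a group this was 0.00890 CPM of the library total in Control (NT), against 0.00591 in KD-1. The exact 95% binomial intervals were 0.000225 to 0.0496 and 0.000150 to 0.0329, for counting error only. Both groups were at or under the level of 3 counts, and no fold is given.

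*Slf1* (ENSMUSG00000021597, from 77191206 to 77283937, minus strand) encodes a factor that brings the SMC5/6 complex to sites of DNA damage. It had 48.0, 37.7 and 39.8 CPM in Control (NT), against 43.5, 42.8 and 45.3 in KD-1, with the KD-1 values inside the Control (NT) range. The log2 fold change was 0.073 (standard error 0.092, 95% interval -0.14 to 0.28, adjusted p = 0.511). Without the middle Control (NT) library it was 0.012, and without the shallowest one 0.17 (adjusted p = 0.042), which is short of the fold threshold. A stretch of 734 bases is shared with the neighbouring gene *2210408I21Rik* on the opposite strand.

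*Mctp1* (ENSMUSG00000021596, from 76532259 to 77181399, plus strand) encodes a membrane protein with C2 domains, the calcium-binding modules also found in the extended synaptotagmins. It had 2, 0 and 8 counts in Control (NT), against 8, 8 and 38 in KD-1, below the filter on low counts. Taken over each group, the level was 0.0890 CPM of the library total (exact 95% binomial interval 0.0427 to 0.164) and 0.319 (0.240 to 0.417). These intervals cover counting error alone. Where the gene was fitted without the filter, edgeR's quasi-likelihood test gave an adjusted p of 0.13 and DESeq2 gave 0.15, and neither passed the threshold.

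*Rhobtb3* (ENSMUSG00000021589, from 76017652 to 76092199, minus strand) encodes an atypical small GTPase that binds the ubiquitin ligase scaffold cullin 3. It had 124, 121 and 110 CPM in Control (NT), against 79.3, 81.5 and 83.2 in KD-1. The groups were well separated, with means of 118 ± 7.41 and 81.3 ± 1.95 CPM (SD, n = 3 each). The log2 fold change of -0.54 (standard error 0.062, 95% interval -0.68 to -0.39, adjusted p = 0.000102) passed the threshold on the adjusted p, and the level in Control (NT) was 1.45 times that in KD-1, just short of a call. The pseudogene *Gm15528* overlaps exons of *Rhobtb3* on the same strand, over 864 bases, and was given at most 3 counts in a library. Leaving out the deepest Control (NT) library moved the change of *Rhobtb3* to -0.59, past the threshold, and leaving out the middle one gave -0.52.

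*Glrx* (ENSMUSG00000021591, from 75987974 to 76002178, plus strand) encodes glutaredoxin 1, which reduces glutathione-bound protein thiols. It had 11.5, 11.6 and 12.3 CPM in Control (NT), against 20.4, 20.5 and 22.9 in KD-1. All KD-1 libraries were above all Control (NT) libraries, and within each group the values lay close together. The level was 1.80-fold higher (log2 fold change 0.85, standard error 0.083, 95% interval 0.66 to 1.04, adjusted p = 3.77e-05 by the quasi-likelihood test of edgeR), and this call also held in all 14 alternative settings, with 0.83 where the middle Control (NT) library was left out.

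**Figure D1:**
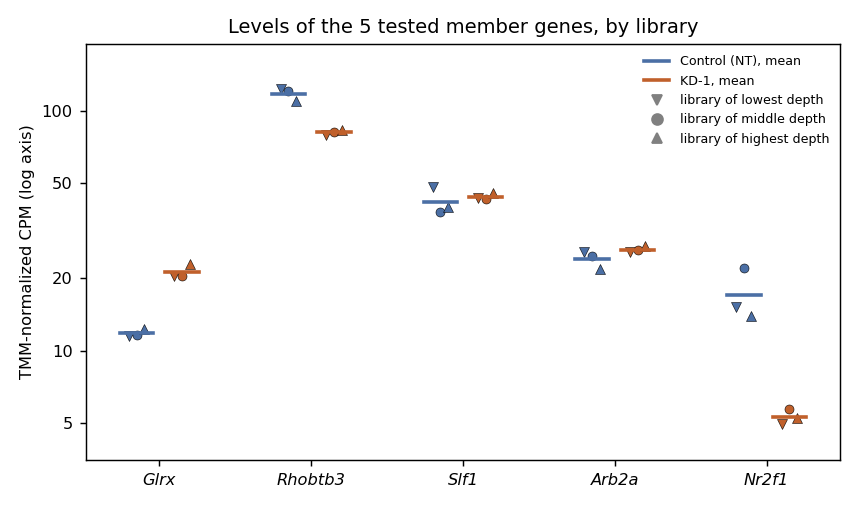
TMM-normalized CPM (log axis) of the 5 tested members in each of the 6 libraries, in order of their position on the chromosome; symbols give the depth of the library within its group and bars the group means (n = 3). *Nr2f1* and *Rhobtb3* were lower and *Glrx* higher in every KD-1 library, and the groups overlapped for *Slf1* and *Arb2a*; the middle Control (NT) library had the highest *Nr2f1* value, 22.2 CPM.

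The members differed in how far replicates varied. In Control (NT), *Nr2f1* was the most variable, with a coefficient of variation of 26.2%, followed by *Slf1* with 12.9%, *Arb2a* with 8.61%, *Rhobtb3* with 6.28% and *Glrx* with 3.76%. Without the middle Control (NT) library that of *Nr2f1* was 5.88% (n = 2), below *Slf1* with 13.1%, *Arb2a* with 11.8% and *Rhobtb3* with 8.52%. In KD-1 it was between 2.39% (*Rhobtb3*) and 7.48% (*Nr2f1*). With all libraries the change of *Nr2f1* had the largest standard error among the tested members as well as the largest size.

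Levels of different genes were set side by side as CPM per kb of annotated exon. In Control (NT) *Rhobtb3* had the highest mean level (11.8 CPM per kb), followed by *Slf1* (5.30), *Nr2f1* (2.95), *Arb2a* (2.03) and *Glrx* (1.26). No neighbours in this order overlapped between their libraries. In KD-1 the order was *Rhobtb3* (8.15), *Slf1* (5.56), *Glrx* (2.26), *Arb2a* (2.21) and *Nr2f1* (0.914). Here *Glrx* and *Arb2a* overlapped, with 2.17 to 2.44 and 2.16 to 2.28 CPM per kb. *Nr2f1* thus passed from a level above its neighbour *Arb2a* to one below it.

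Since *Arb2a* is the host gene, the counts of each member were also expressed per 100 *Arb2a* counts of the same library, a ratio that needs no normalization between libraries. *Nr2f1* had 58.6, 89.3 and 63.7 counts per 100 *Arb2a* counts in Control (NT), against 19.2, 21.8 and 19.3 in KD-1, a 3.51-fold lower mean. *Rhobtb3* had 479, 485 and 502 against 308, 311 and 306, a separation with hardly any spread within KD-1. *Glrx* had 44.6, 46.6 and 56.4 against 79.2, 78.2 and 84.3. For these genes the exact two-sided permutation test gave p = 0.1, the smallest it can give with 3 libraries against 3. *Slf1* had 186, 152 and 182 against 169, 163 and 167, and the same exact permutation test gave p = 0.5. The 4 ratios share the *Arb2a* counts, so they are not independent of one another.

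**Figure D2:**
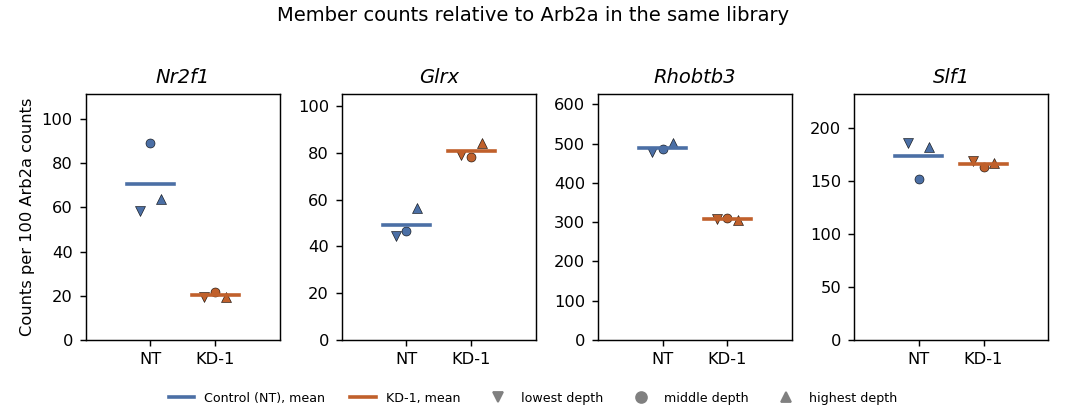
Counts of 4 members per 100 *Arb2a* counts of the same library (linear axes from 0, a different scale in each panel); symbols give the depth of the library within its group and bars the group means (n = 3). The ratio of *Nr2f1* was 70.5 on average in Control (NT), against 20.1 in KD-1, that of *Glrx* went the other way, and for *Slf1* the groups overlapped.

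To place the members among their surroundings, all genes within 3 Mb of *Arb2a* were examined. The table listed 56 genes there, of which 19 were protein-coding and the others pseudogenes, and 21 had no count in any library. A further 48 annotated lncRNA genes of this window were not analysed here. Of the 15 genes tested, 4 rose and 2 fell, which is 40.0% called and close to the 37.8% of all tested genes. By adjusted p alone 11 of the 15 passed (63.5% of all tested genes did), and the groups did not overlap for 12 (70.6% of all). Their median log2 fold change was 0.13, against -0.015 over all tested genes.

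*Adgrv1*, which encodes a very large adhesion receptor, showed the largest rise of the window, 2.93 Mb from *Arb2a*. It had 10.9, 7.78 and 10.4 CPM in Control (NT), against 35.3, 39.2 and 36.1 in KD-1, a change of 1.93 on the log2 scale (standard error 0.12, adjusted p = 2.78e-06 by the quasi-likelihood test of edgeR). On the other side, *Pcsk1*, a convertase of prohormones, rose by 1.38 on the log2 scale (standard error 0.18), from a mean of 2.14 to 5.42 CPM. *Ell2*, a subunit of the super elongation complex that lies next to *Glrx*, rose by 1.00 (standard error 0.11), from 16.1 to 32.0 CPM. *Arsk*, a lysosomal sulfatase gene close to *Rhobtb3*, fell by 0.67 (standard error 0.12), from 8.07 to 5.04 CPM.

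Another 4 genes beside *Rhobtb3* passed the adjusted p with a smaller fold. *Cast*, *Skic3* and *Arrdc3* had log2 fold changes of 0.42, 0.40 and 0.32, and *Rfesd* had -0.58. *Skic3* missed the threshold on the adjusted p in 6 of the 14 alternative settings (highest 0.11), and was 0.22 without the middle Control (NT) library. *Rfesd* was called in 3 of the 14, with upper-quartile normalization, without the deepest Control (NT) library and without the middle KD-1 library. It lies 1.68 Mb from *Arb2a*, between *Rhobtb3* and *Arsk*, so that the run from *Rhobtb3* through *Rfesd* to *Arsk* held values of -0.54, -0.58 and -0.67, with *Glrx* and *Ell2* on its lower-coordinate flank at 0.85 and 1.00. *2210408I21Rik*, the gene between *Slf1* and *Arb2a*, had -0.21 (adjusted p = 0.0964) and the pseudogene *Gm18517* had 0.018 (adjusted p = 0.960).

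Within 1 Mb of *Arb2a* only 4 genes were tested, *Slf1*, *2210408I21Rik*, *Arb2a* and *Nr2f1*, and 1 of them, *Nr2f1*, was called. Beyond *Nr2f1* there is no further annotated protein-coding gene for 2.68 Mb, up to *Arrdc3*. Widening the window to 5 Mb gave 41 tested genes, of which 11 rose and 4 fell (36.6% called). Over the whole of chromosome 13, 236 of 595 tested genes were called (39.7%), 156 higher and 80 lower, with a median log2 fold change of 0.18, compared with -0.029 on the other autosomes and -0.059 on these without chromosome 1. Chromosome 1 was tilted further than chromosome 13, with 350 of 871 tested genes higher and 68 lower. Under other normalizations the median of chromosome 13 was 0.17 to 0.24. With genes of a mean log2 CPM over 3 it was 0.076, against -0.058 on the other autosomes.

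**Figure D3:**
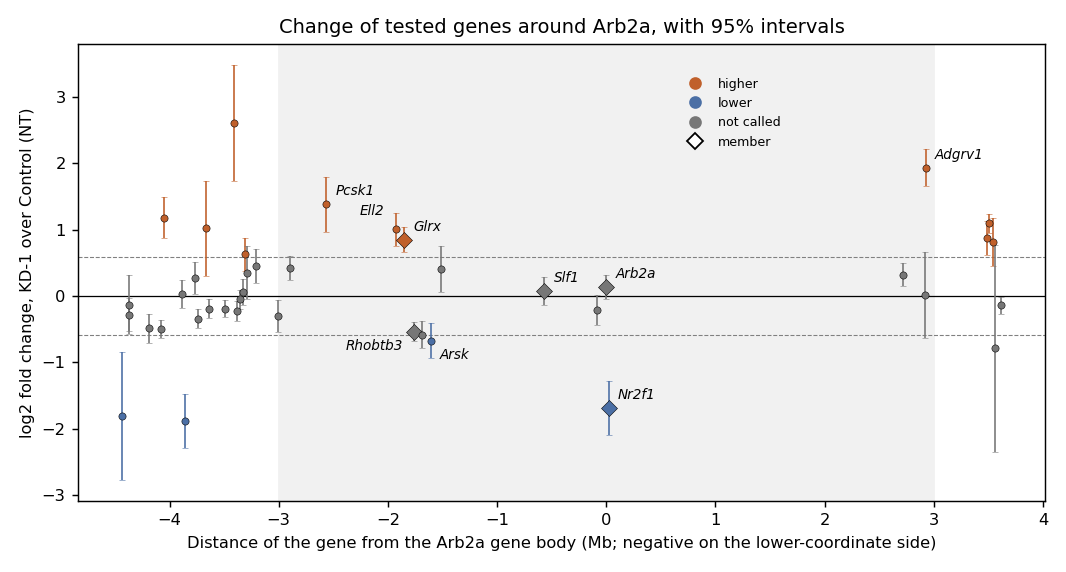
Log2 fold change of KD-1 over Control (NT), with 95% intervals, of the genes tested within 5 Mb of *Arb2a*, plotted by distance from the gene body; the shaded band covers 3 Mb on either side, dashed lines mark a 1.5-fold change in either direction, and diamonds are members. Of the genes within 1 Mb, *Nr2f1* alone was past the lower line, and rises and falls were mixed on both sides.

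Genes related to the members were then examined from lists of family members and partners, whose counts are to be read beside the 37.8% of all tested genes called (19.7% higher, 18.1% lower) and the median of -0.015 over all. The NR2 nuclear receptors and their RXR partners had 8 tested genes of 12, with a median log2 fold change of -0.48 (-0.54 without *Rxrg*); *Nr2f1*, *Nr2f2* and *Nr2f6* fell and *Rxrg* rose. *Nr2f2*, which encodes COUP-TFII, the closest relative of NR2F1, lies on another chromosome. It had 51.9, 67.2 and 46.6 CPM in Control (NT), against 20.2 to 21.4 in the 3 KD-1 libraries, a change of -1.41 on the log2 scale (standard error 0.13, adjusted p = 2.35e-05 by the quasi-likelihood test of edgeR), held in all 14 alternative settings. Both COUP-TF genes thus had clearly lower levels in each KD-1 library, and for both the middle Control (NT) library was the highest.

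*Nr2f6* had 7.71, 13.9 and 7.49 CPM against 6.46, 5.56 and 5.55 (log2 fold change -0.73, adjusted p = 0.0222), and without the middle Control (NT) library its change was -0.38 and no longer called, nor was it called without the middle or the deepest KD-1 library (adjusted p = 0.073 and 0.078). *Rxrg* was scarce, with 3, 0 and 8 counts in Control (NT), against 44, 25 and 84 in KD-1; it reached the level of the low-count filter in KD-1 libraries alone, and its call is given as a description. *Nr2c1*, *Nr2c2* and *Rxrb* passed the adjusted p with log2 fold changes of -0.54, 0.37 and -0.43, short of the fold threshold, and *Rxra* had 0.19 (adjusted p = 0.0673).

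The SMC5/6 complex and other partners of SLF1 had 10 tested genes, with 1 called in each direction and a median of 0.090. *Eid3*, which was not called, reached the filter's level in all libraries of KD-1 only, and without it the median was 0.073. *Rad18*, the ubiquitin ligase through which SLF1 is recruited, rose by 0.76, and *Nsmce1*, a subunit of the complex, fell by 0.83. The core genes *Smc5* and *Smc6* had 0.036 and 0.11, and *Slf2*, whose product acts with SLF1, had 0.43 (adjusted p = 0.000891). In the RhoBTB family and cullin 3 list, 1 of 6 tested genes rose and 1 fell (median -0.19). *Cul3* rose by 0.79, from 150 ± 7.47 to 260 ± 6.67 CPM (SD, n = 3 each). *Rhobtb1* fell by 0.76, and *Rhobtb2* had 0.58 (adjusted p = 0.00171), just short of a call.

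Glutaredoxin and thioredoxin genes moved in both directions: 4 of 13 tested genes rose, 2 fell, and the median was -0.028. Besides *Glrx*, the mitochondrial glutaredoxin *Glrx2* rose by 1.04, from 21.8 ± 3.13 to 44.6 ± 2.05 CPM (SD, n = 3 each). *Gsr*, which regenerates reduced glutathione, and *Gclc*, the catalytic subunit for glutathione synthesis, rose by 0.78 and 0.81. *Glrx5* and *Txn2*, both mitochondrial, fell by 0.72 and 0.59. The fall of *Glrx5* was -0.45 and not called without the middle Control (NT) library, and that of *Txn2* was called in 5 of the 14 alternative settings only. *Gclm*, the partner of *Gclc*, had 0.58 (adjusted p = 0.0144).

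Of the MCTP genes and related C2 proteins 4 of 5 were tested and 2 rose (median 0.49, and 0.31 without *Esyt3*). *Esyt1* rose by 0.67 (0.58 and not called without the shallowest Control (NT) library), and *Esyt3*, with 8, 6 and 16 counts in Control (NT), against 47, 51 and 91 in KD-1, rose by 2.00, and reached the level of the filter in all libraries of KD-1 only. *Mctp2* had 0.31 (adjusted p = 0.0756). Of the 9 POU genes 7 were tested, and 6 rose and 1 fell (median 2.83). *Pou5f1*, which encodes OCT4, had 229, 328 and 251 CPM in Control (NT), against 627, 670 and 685 in KD-1, a change of 1.29 on the log2 scale (standard error 0.12, adjusted p = 3.08e-05 by the quasi-likelihood test of edgeR). Among POU class 3 genes, which act in neural cells, *Pou3f2* and *Pou3f3* rose from 4.62 and 2.18 to 33.1 and 43.1 CPM. *Pou3f1* and *Pou3f4* reached the filter's level in all libraries of KD-1 only; of the 5 genes without them 4 rose and 1 fell (median 1.29). *Pou2f2* fell by 0.98. *Pou5f2* within *Arb2a*, with 2 counts in all, was the scarcest gene of this list.

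**Figure D4:**
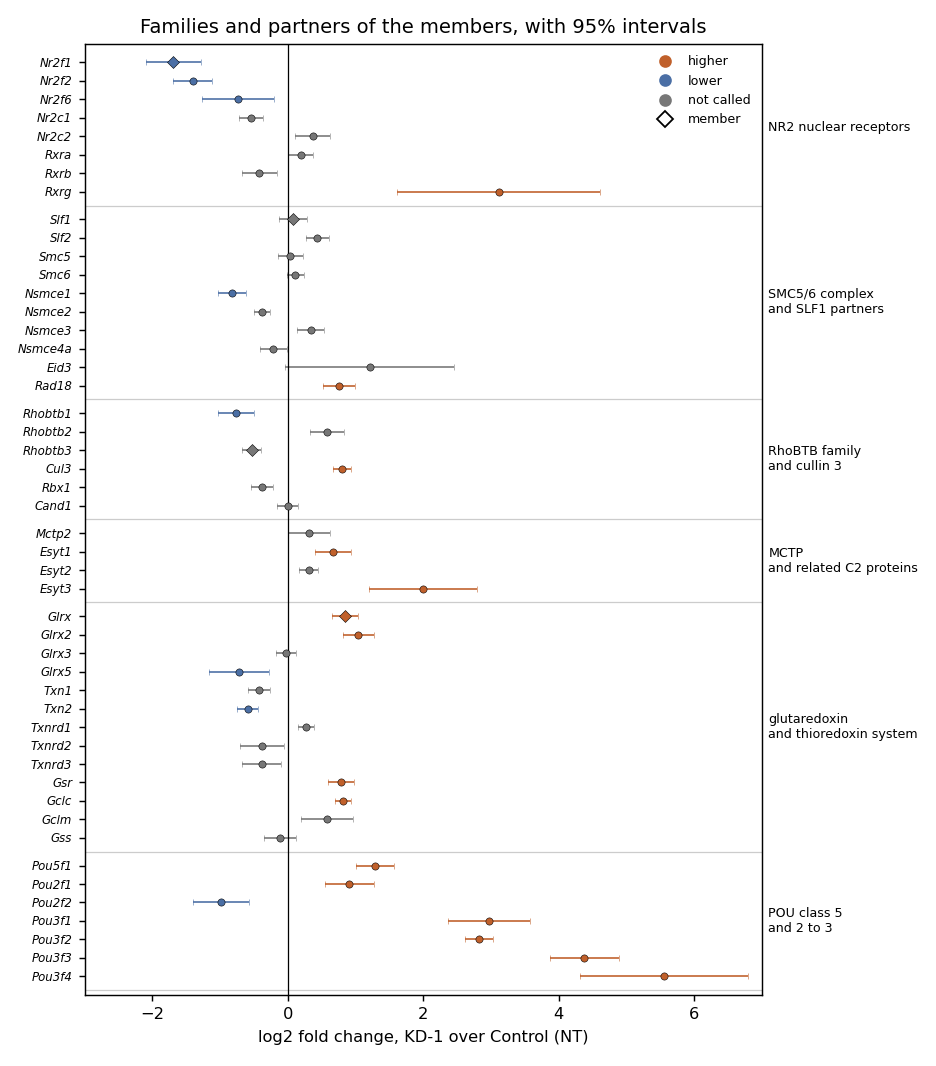
Log2 fold change of KD-1 over Control (NT), with 95% intervals, of the tested genes of 6 lists of relatives and partners of the members; diamonds are the members and colours give the call. *Nr2f1* and *Nr2f2* stood together at -1.69 and -1.41, while the POU list held the largest rises and the SMC5/6 list mostly small changes.

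The RNA of several sets of cell type markers differed between the groups, and its values are given beside the changes of *Nr2f1* and *Glrx*. All 6 markers of somites and paraxial mesoderm fell, 3 of them at the filter's level in all libraries of both groups; their summed level was 432, 503 and 454 CPM in Control (NT), against 3.36, 3.15 and 3.15 in KD-1, and the most abundant was *Meox1* in Control (NT) and *Tcf15* in KD-1. In KD-1 *Pax1* and *Meox2* had between 0 and 4 counts in each library and *Meox1* between 17 and 37, while *Tcf15* kept 2.37 ± 0.0443 CPM of 22.7 ± 5.06 in Control (NT) (SD, n = 3 each). All 6 markers of naive pluripotency rose, from a summed 456, 408 and 450 to 1390, 1360 and 1400 CPM, and *Tfcp2l1* was the most abundant. Of the 5 neural markers 4 were tested and 3 rose (summed 34.8, 37.8 and 34.2 against 132, 134 and 132 CPM), *Pax6* being the most abundant in Control (NT) and *Tubb3* in KD-1.

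Of the 4 neural crest markers 3 were tested and rose, of which only *Tfap2a* reached the filter's level in both groups (summed 1.54, 0.680 and 1.05 against 24.5, 26.2 and 25.5 CPM), with *Tfap2a* the most abundant in Control (NT) and *Tfap2b* in KD-1, while *Sox10* had at most 6 counts. Of 5 markers of the primitive streak and tail bud 3 fell (summed 31.9, 41.4 and 34.4 against 19.4, 17.2 and 18.4 CPM), and *Cdx2* was the most abundant. *Tbx6* and *Fgf8* reached the filter's level in all libraries of Control (NT) only; of the 3 genes without them *Cdx2* alone fell (median -0.31). Definitive endoderm and cardiac mesoderm each had 1 tested marker of 4, *Cer1* and *Gata4*, and both fell, *Cer1* reaching the filter's level in Control (NT) only. Of 5 endothelial and blood markers 3 were tested, *Pecam1* rose and *Kdr* and *Hbb-bh1* fell, the last at the filter's level in Control (NT) only. Feeder fibroblast markers summed to 3.28, 3.19 and 3.59 CPM in Control (NT), against at most 0.896 in a KD-1 library. None of them reached the filter's level in both groups, so no count of their calls is given; by mean level *Col1a2* was the most abundant in Control (NT) and *Thy1* in KD-1. The part of the cell types behind these markers in the changes of the members was not tested.

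Finally, the genes whose levels followed those of *Arb2a* and *Nr2f1* most closely over the 6 libraries were identified by Pearson's correlation of log2 CPM. For *Arb2a* these were *Lix1l* (r = 0.990), the pseudogene *Gm48774* (r = 0.983) and *Zfp946* (r = 0.980), and 16 genes had r over 0.95. *Lix1l* had 20.3, 19.3 and 17.0 CPM in Control (NT), against 19.7, 20.7 and 21.1 in KD-1, and shared with *Arb2a* a lowest value in the deepest Control (NT) library. For *Nr2f1* the closest were *Txnl4b*, *Ss18l1* and *Hmgn2-ps*, all with r = 0.999 or above, and 2015 genes had r over 0.95. Since r does not measure the size of a change, their log2 fold changes could be smaller than the -1.69 of *Nr2f1*. *Txnl4b* had -0.70 and was called, while *Ss18l1* had -0.25 and *Hmgn2-ps* -0.44, and neither was called. These 3 genes had their highest level in the middle Control (NT) library, as *Nr2f1* has. None of the 6 genes lies on chromosome 13, and all values share the same 6 libraries in 2 groups, so the correlations are a description only.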

How the data were processed

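RNA-seq libraries (TruSeq, paired-end) of 3 Control (NT) and 3 KD-1 gastruloid samples were quantified in the study with Salmon (version 1.1 in the submitters' processing notes) on a Gencode gene model. The paper states a version number for this model, but its genome build is not given in the sources used here. The authors deposited estimated counts per gene (expected counts), in whole numbers and without normalization. Salmon divides reads between similar sequences, so overlapping genes and near-identical copies are uncertain. Column names gave the group but their suffixes did not give the replicate number in the labels.

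Genes were matched to GENCODE vM39 on GRCm39 (35222 of 35565 identifiers). Differential expression was tested over the whole table with edgeR 4.0.16 in R 4.3.3 (filterByExpr, 15110 genes kept; TMM; glmQLFit with robust estimation and glmQLFTest; Benjamini-Hochberg adjustment over the genes tested), with condition as the only term, after the tests had been tried on simulated data. The biological coefficient of variation was 10.6%. A count of 0 allows up to 0.143 CPM in the shallowest library and 0.0351 in the deepest, taking 3 counts as the limit; intervals on counts cover counting error only. Likeness was computed on log2(CPM + 0.1). P-values measure the spread between these libraries.

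Named were all members, the tested genes within 3 Mb of *Arb2a*, genes of 6 lists of relatives and partners (another list is not reported here), cell type markers and the 3 genes most like *Arb2a* and *Nr2f1*; of the lists, only some genes are named. The members and lists were chosen with earlier results of these data known. Alternatives were DESeq2 1.42.0, limma-voom (limma 3.58.1), 3 other normalizations, 2 other filters, no robust estimation and leaving out each library; other fold thresholds and windows were also tried. Promoter sequences are from RefSeq (GRCm38.p6).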

Additional observations from a re-analysis of the deposited data

How the results depend on the processing

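No paired analysis was possible because the columns do not carry the replicate numbers of the labels. With an absolute log2 fold change over 1, 1 member was called (*Nr2f1*), and 3274 of all genes; without a fold threshold, 11 genes within 3 Mb and 9597 of all genes. Windows of 1 and 5 Mb held 1 and 15 called genes. Restricting chromosome 13 to a mean log2 CPM over 3 gave a median of 0.076. Leaving out each library gave 2 to 3 members called, 6 to 8 genes within 3 Mb and 5179 to 6116 of all genes. With a library left out, *Rhobtb3* ranged from -0.59 to -0.50 and was called only without the deepest Control (NT) library, and *Arb2a* ranged from 0.056 to 0.18; over all 14 alternatives they reached -0.48 and 0.19, and *Arb2a* was called in none. With a library left out, *Nr2f1* ranged from -1.83 to -1.45, *Glrx* from 0.80 to 0.89 and *Slf1* from 0.012 to 0.17. *Gm18517* ranged from -0.27 (Control (NT) library of middle depth left out) to 0.28, and was -0.058 without the deepest KD-1 library. The direction of the 5 tested members was otherwise kept; the cause of these shifts was not tested. With 3 libraries of 1 line in each group, differences between lines and low-count genes such as *Mctp1* and *Pou5f2* are beyond what these data can resolve.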

Other observations

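The genes named here are to be read beside the shares of calls. Over the whole window of 5 Mb, 15 of 41 tested genes were called (36.6%), near the 37.8% of all tested genes. Farther out, between 3 and 5 Mb from *Arb2a*, 3 protein-coding genes beyond *Adgrv1* were higher in KD-1. *Lysmd3* rose by 0.87 on the log2 scale, *Polr3g*, a subunit of RNA polymerase III, by 1.09, and *Mblac2* by 0.82. The groups did not overlap for these genes, nor for 70.6% of all tested genes. *Polr3g* had 41.0, 36.5 and 38.3 CPM in Control (NT), against 80.7, 82.1 and 84.0 in KD-1. The pseudogene *Gm48113*, inside *Mblac2*, had -0.79 (adjusted p = 0.340) with groups that overlapped, and the next gene, *Cetn3*, had -0.14 (adjusted p = 0.0588, quasi-likelihood test of edgeR).

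On the other side *Tert*, the catalytic subunit of telomerase, rose by 1.18, from 2.99, 3.79 and 3.07 CPM to 7.46, 7.70 and 7.18. *Ahrr*, *Tppp* and *Zfp72* also rose there, by 2.61, 1.02 and 0.63; *Ahrr* reached the level of the low-count filter in 1 Control (NT) library and in all of KD-1. *Nkd2*, an inhibitor of WNT signalling, fell by 1.88, from 11.2 ± 2.78 to 3.03 ± 0.0962 CPM (SD, n = 3 each), and *Irx4*, with at most 27 counts in a library, fell by 1.80 and reached that level in no KD-1 library. These genes were named after their values were seen.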
